A study of Mus musculus with 15 samples.

Results

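The 10 genes described here code for the enzymes of de novo purine synthesis and for those that turn its product into GMP: Prps1, Prps2, Ppat, Gart, Pfas, Paics, Adsl, Atic, Impdh2 and Gmps. They were chosen by symbol, with no measured value in the rule, but with earlier results of these data known. The count table of batch 1 held 46078 genes and that of batch 2 held 13063 named genes, and all 10 were found in both. The samples were muscle satellite cells from mouse hindlimb, cultured in F10 medium with horse serum and sequenced in bulk with Smart-seq2 (full-length cDNA that does not keep the strand), 15 libraries in 5 groups of 3. In batch 1, cells received DMSO or 0.05 mM adenosine, and in batch 2, labelled C57BL/6J, they received DMSO, 0.1 mM adenosine or 0.25 mM adenosine monophosphate (AMP, adenosine carrying a phosphate), each for 24 hours. Adenosine dose and batch changed together, and the AMP dose was unlike either adenosine dose. The labels name no genetic change in any group and no strain for batch 1. Whether the 3 replicates within each group stem from different mice or dishes is not stated, so every p-value below reflects just the variation among these libraries and may be of technical origin.

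De novo synthesis builds the purine ring step by step on phosphoribosyl pyrophosphate (PRPP), an activated ribose, using glutamine, glycine, aspartate and formyl groups carried by folate, and ends in inosine monophosphate (IMP). IMP is then turned into AMP or GMP, and cells can also make purine nucleotides from free adenosine and bases by salvage, which spares the ring synthesis. Purine nucleotides inhibit the early enzymes of the route as end products, a control on the protein that mRNA levels do not show. Satellite cells, the stem cells of skeletal muscle, leave quiescence when activated, and growing and dividing cells need purines for RNA and DNA.

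The depth per library ran from 14683346 to 20799588 counts (batch 1) and from 11107450 to 14201933 (batch 2), and a member had 326 (Prps2) to 10663 (Impdh2) counts per library in batch 1 and 358 (Prps2) to 8159 (Paics) in batch 2. All 10 members passed the filter on low counts in every comparison. Summed CPM (counts scaled to the library total) of 10 satellite cell and myoblast markers was 8760 to 9110 in the DMSO libraries of batch 1 and 6380 to 6830 in those of batch 2. It was 5210 to 6200 with 0.05 mM adenosine, 3670 to 4410 with 0.1 mM adenosine and 4160 to 4990 with AMP. In the test across genes 8 of the 10 markers were lower in batch 1, 8 with adenosine in batch 2 and 6 with AMP, while Sdc4 was higher in all 3 treatments and Pax7, the defining marker of satellite cells, was higher in batch 2 (log2 fold change 0.35 with adenosine and 0.62 with AMP) and not called in batch 1 (-0.16). The sum over 12 proliferation markers was 1740 to 3080 CPM with DMSO and 801 to 896 with adenosine in batch 1, and 4270 to 4920 with DMSO, 1420 to 1820 with adenosine and 1270 to 1740 with AMP in batch 2. The part of these differences in the results below was not tested, and in bulk RNA fewer cells of a type and less RNA per cell cannot be told apart.

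In the DMSO libraries the members spanned a wide range of levels, compared here as FPKM (fragments scaled by gene length and depth). Impdh2, Paics and Prps1 led both batches. In batch 1 the order of the group means was Impdh2 (144 ± 2.39 FPKM, SD, n = 3), Paics (138 ± 22), Prps1 (97.6 ± 14.4), Adsl (49.1 ± 5.61), Gart (41.9 ± 1.87), Ppat (25.1 ± 2.96), Atic (24.2 ± 2.30), Gmps (19.5 ± 2.70), Pfas (15.2 ± 1.68) and Prps2 (13.6 ± 2.00). The libraries of Impdh2 and Paics overlapped, as did those of Ppat and Atic, Atic and Gmps, and Pfas and Prps2, while the other neighbours in the order did not. Of the 11318 genes averaging 1 FPKM or more there, Impdh2 stood at the percentile 96.4 and Prps2 at 64.8. In batch 2 Paics came first (204 ± 1.53 FPKM), ahead of Impdh2 (174 ± 2.99), and Pfas last (15.0 ± 1.36), with overlap only between Atic and Pfas. After either treatment in batch 2 Impdh2 was first, Prps1 came after it and Paics next, without overlap between these neighbours, and with adenosine in batch 1 that was also the order of the means, with Impdh2 and Prps1 overlapping.

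With 0.1 mM adenosine 8 of the 10 genes fell and none rose, and with 0.25 mM AMP 9 fell and none rose (edgeR's quasi-likelihood test, Benjamini-Hochberg adjusted p under 0.05 over all genes tested). Of all 13063 genes tested in batch 2, 69.4% were called with adenosine (34.9% higher, 34.5% lower) and 65.6% with AMP (33.7% higher, 31.8% lower). The median log2 fold change of the 10 was -0.60 with adenosine and -0.52 with AMP, against 0.01 over all genes in both comparisons. With 0.05 mM adenosine in batch 1 the picture was mixed: 4 genes fell, 2 rose and 4 were not called, where 39.2% of 13842 genes were called, 19.5% lower and 19.6% higher. The batch 1 median was -0.11 against 0.03 over all genes, and ran from -0.231 to -0.045 when 1 library was left out. Prps2, Pfas, Paics and Atic were called lower in all 3 treatments, while Ppat, Gart, Adsl and Gmps were called lower in the 2 treatments of batch 2 and not called in batch 1. Both batch 2 treatments were set against the same DMSO libraries. On the scale of the fit, TMM-scaled CPM, the treated and DMSO libraries did not overlap for 6 members in batch 1, where this held for 51.4% of all genes, for 9 with adenosine in batch 2 (73.6% of all genes) and for 9 with AMP (70.5%). These values rest on TMM scaling, which puts the median gene near no change. With scaling by library totals alone the median of all genes was 0.23 in batch 1, 0.32 with adenosine and 0.28 with AMP in batch 2, that of the 10 members was 0.088, -0.288 and -0.256, and the members called were then 2 higher and 7 lower with adenosine in batch 2 and 1 higher and 5 lower with AMP.

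**Figure D1:**
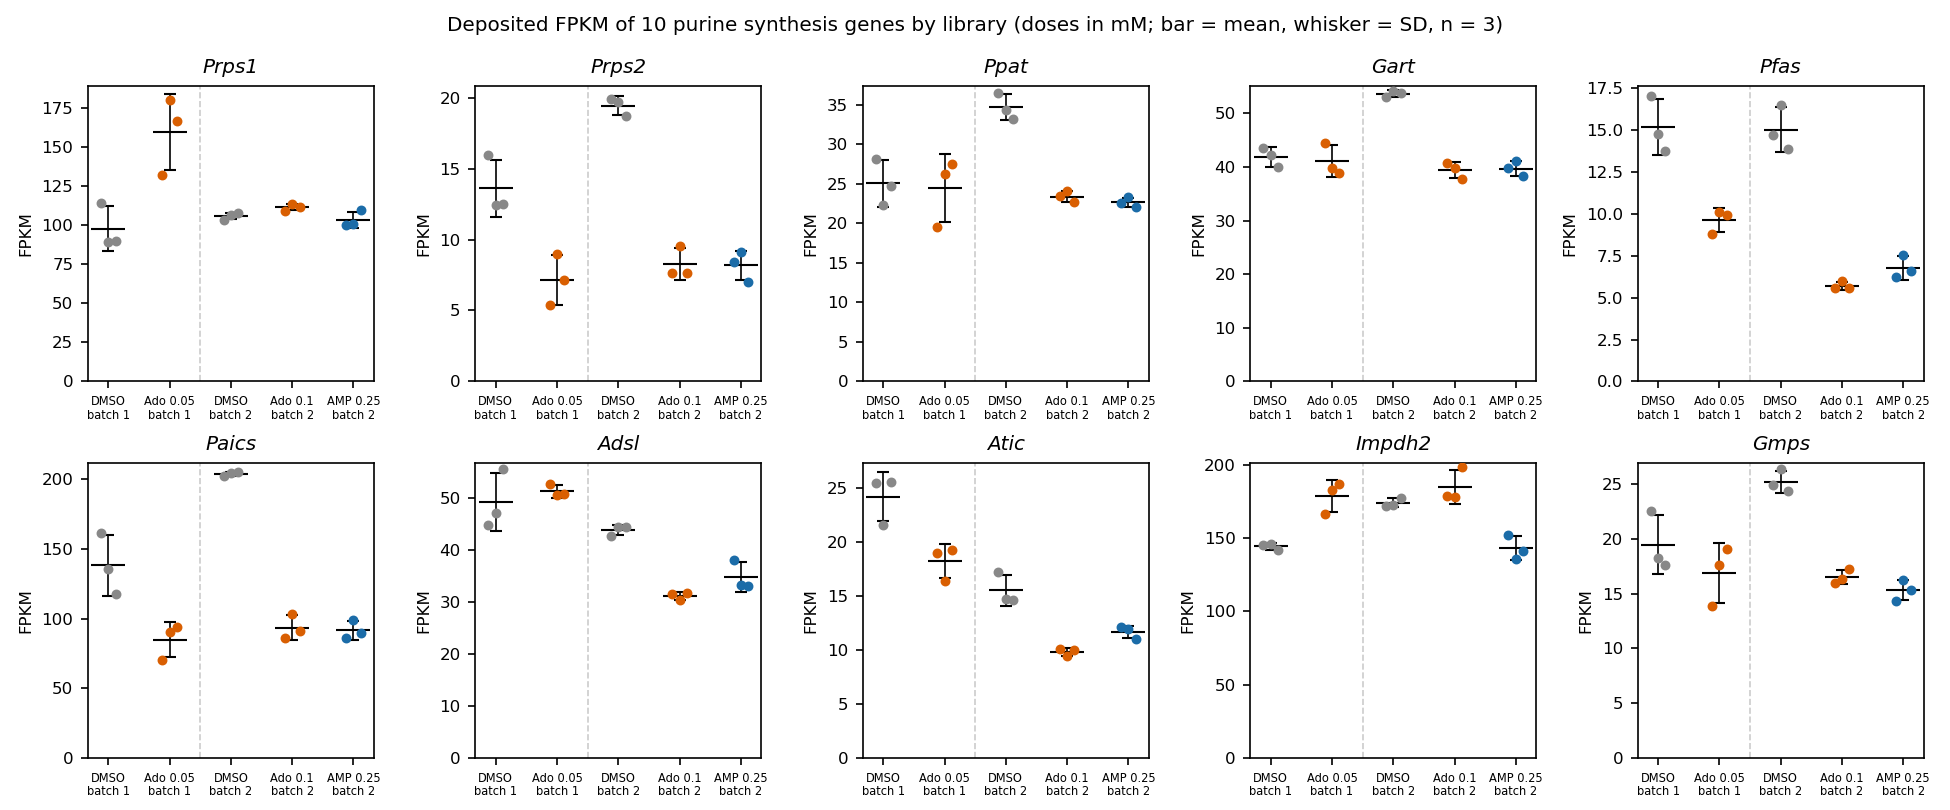
Deposited FPKM of each gene (vertical axis, from 0) in the 15 libraries, as points by group on the horizontal axis, with the group mean (bar) and SD (whisker, n = 3). Prps2, Pfas, Paics and Atic lie lower in every treated group than in the DMSO libraries of the same batch, whereas Prps1 stands above them with 0.05 mM adenosine, at 132 to 180 FPKM against 89.0 to 114.

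PRPP synthetase supplies the substrate of the pathway, and its isoenzyme genes Prps1 and Prps2, both on the X chromosome, went apart. Prps1 had 114, 89.0 and 89.5 FPKM in the DMSO libraries of batch 1 and 132, 180 and 166 FPKM with 0.05 mM adenosine. All 3 adenosine libraries lay above the DMSO libraries. The gene was 1.64-fold higher (log2 fold change 0.72, SE 0.14, adjusted p = 0.00182). In batch 2 Prps1 had 103, 106 and 107 FPKM with DMSO, 109, 113 and 112 with adenosine and 100, 100 and 109 with AMP. The adenosine libraries again lay above DMSO without overlap, but the log2 fold change of 0.07 (SE 0.06, adjusted p = 0.361) was not called, and the AMP libraries overlapped DMSO (log2 fold change -0.03, 95% interval -0.17 to 0.11, adjusted p = 0.711). Under scaling by library totals Prps1 was called higher in batch 2, at 0.38 with adenosine (adjusted p = 0.00056) and 0.24 with AMP (adjusted p = 0.0165).

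Prps2, the isoenzyme with the lower level, had 15.9, 12.4 and 12.5 FPKM with DMSO and 5.38, 8.95 and 7.15 with adenosine in batch 1. In batch 2 it had 19.9, 19.7 and 18.7 FPKM with DMSO, 7.61, 9.57 and 7.64 with adenosine and 8.40, 9.09 and 7.03 with AMP. Every treated library was below every DMSO library of its batch. The fall was 1.89-fold in batch 1 (log2 fold change -0.92, SE 0.19, adjusted p = 0.00227), 2.36-fold with adenosine in batch 2 (-1.24, SE 0.11, adjusted p = 1.29e-07) and 2.38-fold with AMP (-1.25, SE 0.12, adjusted p = 1.77e-07). Within each library, the ratio of Prps1 to Prps2 FPKM was 7.15 to 7.17 in the DMSO libraries of batch 1 and 20.1 to 24.6 with adenosine. It was 5.18 to 5.74 with DMSO, 11.8 to 14.6 with adenosine and 11.1 to 15.6 with AMP in batch 2. The ratio was thus 3.15-fold, 2.49-fold and 2.34-fold higher in the treated libraries, with no overlap in any of the 3 comparisons. Of the stretches of 50 bases in Prps1 transcripts, 9.93% also occur in Prps1l3, a Prps1-like gene on chromosome 12, so reads there could have been lost or assigned to either gene. For Prps2, 0.105% of the stretches occur in other genes, Prps1l3 not among them.

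Ppat codes for the amidotransferase that commits PRPP to the purine route, and Paics for an enzyme of several later steps that adds the carboxyl group and the aspartate. Their genes lie head to head on chromosome 5 (GRCm38), Ppat on the minus strand at chr5:76913249-76951578 and Paics on the plus strand at chr5:76951307-76967509, and their annotated exons share 272 bases. Those bases are 6.15% of the exonic length of Ppat and 8.67% of that of Paics, and reads in them cannot be assigned by strand in these libraries. The window of 300 bases around the start of each gene (250 before, 50 after) is printed from RefSeq, GRCm38.p6, 5′ to 3′ on the strand of the gene, because the 2 starts face each other and their mRNAs changed by unlike amounts. Capitals mark the E-box CACGTG, a site type bound by MYC and related factors. Atic and Impdh2 are shown as the other members whose windows hold it.
Paics, plus strand, chr5:76951052-76951351: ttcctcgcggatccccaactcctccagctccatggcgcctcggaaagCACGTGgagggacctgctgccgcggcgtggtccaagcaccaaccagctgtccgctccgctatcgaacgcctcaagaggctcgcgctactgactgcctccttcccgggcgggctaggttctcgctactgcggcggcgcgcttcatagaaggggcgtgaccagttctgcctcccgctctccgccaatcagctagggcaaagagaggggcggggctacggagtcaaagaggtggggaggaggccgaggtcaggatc
Ppat, minus strand, chr5:76951529-76951828: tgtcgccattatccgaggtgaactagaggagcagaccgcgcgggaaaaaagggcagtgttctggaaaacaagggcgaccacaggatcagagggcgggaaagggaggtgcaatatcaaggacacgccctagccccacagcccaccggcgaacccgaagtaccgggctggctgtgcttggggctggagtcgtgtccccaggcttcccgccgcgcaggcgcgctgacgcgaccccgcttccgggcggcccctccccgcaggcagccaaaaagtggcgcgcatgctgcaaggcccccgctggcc
Atic, plus strand, chr1:71556906-71557205: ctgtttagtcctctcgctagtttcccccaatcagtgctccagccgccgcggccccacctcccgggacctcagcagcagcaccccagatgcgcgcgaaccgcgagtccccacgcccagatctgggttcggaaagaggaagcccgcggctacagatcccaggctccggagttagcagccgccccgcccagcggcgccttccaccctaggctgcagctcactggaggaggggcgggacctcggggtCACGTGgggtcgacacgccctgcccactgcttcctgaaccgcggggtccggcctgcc
Impdh2, plus strand, chr9:108560186-108560485: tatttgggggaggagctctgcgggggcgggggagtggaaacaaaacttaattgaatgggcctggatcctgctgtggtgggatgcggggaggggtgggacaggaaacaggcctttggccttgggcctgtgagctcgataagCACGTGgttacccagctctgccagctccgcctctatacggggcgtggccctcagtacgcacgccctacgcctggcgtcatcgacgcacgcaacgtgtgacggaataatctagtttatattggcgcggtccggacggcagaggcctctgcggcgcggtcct

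The E-box begins 203 bases before the RefSeq start of Paics, 7 before that of Atic and 110 before that of Impdh2. A window was matched by symbol for 9 of the 10 members, Pfas being the one without, and these 3 were the only ones with CACGTG, which 7.15% of all 32817 windows in the table hold on either strand. Of the other motifs searched on both strands, no member window held GCGCATGCG (NRF1 type, in 1.75% of all windows), TTTCGCGC or TTTGGCGC (E2F, 0.323% and 0.515%) or TGATGCAA (ATF4 type, 0.896%). Of the 3 genes with the E-box, Paics and Atic were called lower in all 3 treatments, while Impdh2 was higher in batch 1, not called with adenosine in batch 2 and lower with AMP. A match is a run of letters and does not show that a factor binds there.

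Ppat in batch 1 had 28.2, 22.3 and 24.8 FPKM with DMSO and 19.6, 26.3 and 27.6 with adenosine, so the groups overlapped (log2 fold change -0.02, 95% interval -0.35 to 0.30, adjusted p = 0.916). In batch 2 the DMSO libraries held 36.5, 34.3 and 33.2 FPKM, the adenosine libraries 23.4, 24.0 and 22.6, and the AMP libraries 22.6, 23.3 and 22.1. Both treatments lay below DMSO without overlap. Ppat fell 1.49-fold with adenosine (log2 fold change -0.58, SE 0.07, adjusted p = 2.31e-06) and 1.53-fold with AMP (-0.61, SE 0.07, adjusted p = 1.64e-06).

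In batch 2 Paics gave the largest change in FPKM of the 10 genes. It had 161, 136 and 117 FPKM with DMSO and 70.3, 90.3 and 93.9 with adenosine in batch 1. In batch 2 Paics had 202, 204 and 205 FPKM with DMSO, 86.4, 103 and 90.9 with adenosine and 86.1, 99.1 and 89.7 with AMP. The treated libraries never reached the DMSO range of their batch. The gene fell 1.62-fold (log2 fold change -0.69, SE 0.15, adjusted p = 0.00259), 2.19-fold (-1.13, SE 0.08, adjusted p = 6.05e-09) and 2.22-fold (-1.15, SE 0.08, adjusted p = 8.25e-09). The ratio of Paics to Ppat FPKM was 4.74 to 6.10 with DMSO and 3.41 to 3.59 with adenosine in batch 1, and 5.53 to 6.17 with DMSO, 3.69 to 4.29 with adenosine and 3.81 to 4.25 with AMP in batch 2. No treated library overlapped DMSO in this ratio, which was 1.58-fold, 1.47-fold and 1.46-fold lower, so that Paics lost more than its neighbour within the same libraries.

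**Figure D2:**
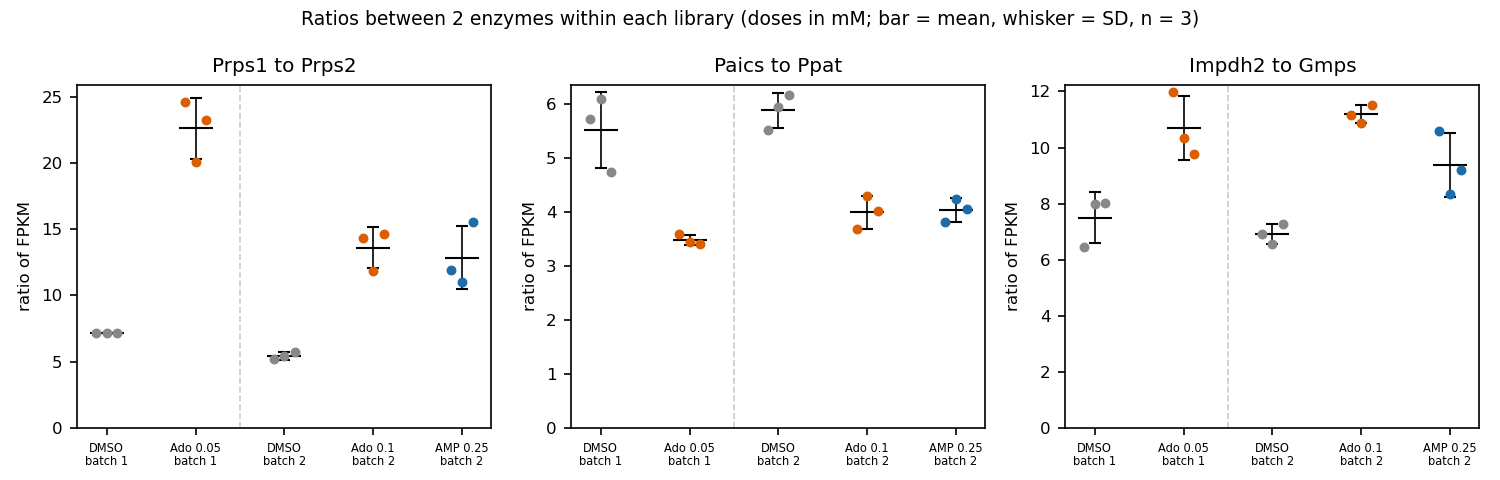
Ratio of the FPKM of Prps1 to Prps2, of Paics to Ppat and of Impdh2 to Gmps (vertical axes, from 0) within each of the 15 libraries, by group, with mean (bar) and SD (whisker, n = 3). The treated libraries lie above DMSO for Prps1 to Prps2 and Impdh2 to Gmps and below it for Paics to Ppat in both batches.

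Gart and Pfas code for the enzymes of the steps between those of Ppat and Paics. Gart joins glycine, transfers a formyl group and closes the first ring of the purine, and Pfas adds the amide nitrogen of glutamine. Pfas had 17.0, 14.7 and 13.8 FPKM with DMSO and 8.78, 10.1 and 9.93 with adenosine in batch 1, and 14.7, 16.5 and 13.9 with DMSO, 5.60, 5.97 and 5.54 with adenosine and 6.21, 7.57 and 6.56 with AMP in batch 2. In each treatment all 3 libraries were below DMSO. The fall was 1.57-fold in batch 1 (log2 fold change -0.65, SE 0.13, adjusted p = 0.00154), 2.64-fold with adenosine in batch 2 (-1.40, SE 0.09, adjusted p = 3.7e-09) and 2.21-fold with AMP (-1.14, SE 0.09, adjusted p = 4.44e-08). In batch 2 the adenosine effect on Pfas was the lowest log2 fold change of the 10 genes, at the percentile 8.89 of all genes tested.

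Gart had 43.6, 42.2 and 39.9 FPKM with DMSO and 44.5, 39.8 and 39.0 with adenosine in batch 1. These groups overlapped (log2 fold change -0.02, 95% interval -0.26 to 0.22, adjusted p = 0.91). In batch 2 Gart had 53.1, 54.3 and 53.8 FPKM with DMSO, 40.7, 39.7 and 37.7 with adenosine and 39.7, 41.1 and 38.4 with AMP, the treated libraries all lower. The log2 fold changes were -0.46 (SE 0.07, adjusted p = 1.43e-05) and -0.43 (SE 0.07, adjusted p = 3.03e-05), and with scaling by library totals both calls were lost (-0.15, adjusted p = 0.0835, and -0.17, adjusted p = 0.0572). Gart shares 676 exonic bases, 16.9% of its length, with Gm15964 on the opposite strand, and reads there cannot be told apart. The ratio of Gart to Pfas FPKM was 1.54-fold, 1.92-fold and 1.64-fold higher in the 3 treatments, with no overlap with DMSO.

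Adsl codes for the lyase that releases fumarate at an intermediate step of ring synthesis and again in making AMP from IMP, and Atic for the enzyme of the last steps to IMP. Adsl in batch 1 had 44.8, 47.1 and 55.5 FPKM with DMSO and 52.6, 50.4 and 50.6 with adenosine, with the treated libraries inside the DMSO range (log2 fold change 0.07, 95% interval -0.18 to 0.32, adjusted p = 0.661). In batch 2 it had 42.6, 44.4 and 44.3 FPKM with DMSO, 31.5, 30.3 and 31.7 with adenosine and 38.0, 33.1 and 33.1 with AMP. Both treatments lay below DMSO. Adsl fell by 0.50 on the log2 scale with adenosine (SE 0.07, adjusted p = 1.41e-05) and by 0.33 with AMP (SE 0.07, adjusted p = 0.000758). The AMP call was lost with scaling by library totals (-0.07, adjusted p = 0.463).

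Atic had 25.5, 21.5 and 25.6 FPKM with DMSO and 19.0, 16.4 and 19.3 with adenosine in batch 1. In batch 2 it had 17.2, 14.8 and 14.6 FPKM with DMSO, 10.0, 9.44 and 9.97 with adenosine and 12.1, 12 and 11.1 with AMP. No treated library reached the DMSO range of its batch. Atic fell 1.32-fold in batch 1 (log2 fold change -0.40, SE 0.12, adjusted p = 0.0198), 1.59-fold with adenosine in batch 2 (-0.67, SE 0.08, adjusted p = 2.71e-06) and 1.33-fold with AMP (-0.41, SE 0.08, adjusted p = 0.000422). The batch 1 call was lost in 6 of 14 alternatives (adjusted p up to 0.194), among them those without DMSO replicate 1 (0.0693), without DMSO replicate 3 (0.0562) and without adenosine replicate 2 (0.067), and the AMP call with library totals (-0.14, adjusted p = 0.171). The ratio of Adsl to Atic FPKM was 1.39-fold and 1.12-fold higher with adenosine in batches 1 and 2, without overlap with DMSO. With AMP it was 1.05-fold higher, and the libraries overlapped DMSO.

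Impdh2 and Gmps act after IMP. Impdh2 codes for the dehydrogenase that makes xanthosine monophosphate, the step that limits guanine nucleotide synthesis, and Gmps for the enzyme that turns it into GMP. Impdh2 had 146, 146 and 142 FPKM with DMSO and 166, 183 and 187 with adenosine in batch 1, so the treated libraries were higher without overlap. It rose 1.25-fold (log2 fold change 0.32, SE 0.11, adjusted p = 0.0311), a call lost in 9 of 14 alternatives with the same direction (adjusted p up to 0.129). Among these, leaving out DMSO replicate 1, 2 or 3 gave adjusted p = 0.0852, 0.0926 and 0.077, and leaving out adenosine replicate 2 or 3 gave 0.125 each. In batch 2 the gene had 172, 173 and 178 FPKM with DMSO, 179, 178 and 198 with adenosine and 152, 136 and 142 with AMP. Adenosine gave no call (log2 fold change 0.08, 95% interval -0.07 to 0.23, adjusted p = 0.326), except with library totals (0.39, adjusted p = 0.000323). With AMP every library was below DMSO, a fall of 0.28 on the log2 scale (SE 0.07, adjusted p = 0.00262) that library totals reduced to -0.01 (adjusted p = 0.889). Of the stretches of 50 bases in Impdh2 transcripts, 39.3% also occur in the pseudogene Impdh2-ps, which had 2.60 to 3.39 CPM with DMSO and 4.56 to 7.63 with adenosine in batch 1, so the Impdh2 values are uncertain to the extent that such reads were dropped or shared.

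Gmps had 22.6, 18.2 and 17.6 FPKM with DMSO and 13.9, 17.6 and 19.1 with adenosine in batch 1, with overlap (log2 fold change -0.20, 95% interval -0.51 to 0.12, adjusted p = 0.315). In batch 2 it had 24.9, 26.4 and 24.4 FPKM with DMSO, 16, 16.4 and 17.2 with adenosine and 14.4, 16.3 and 15.4 with AMP, both treatments below DMSO. The fall was 1.53-fold with adenosine (log2 fold change -0.62, SE 0.07, adjusted p = 1.4e-06) and 1.64-fold with AMP (-0.71, SE 0.07, adjusted p = 3.99e-07). The ratio of Impdh2 to Gmps FPKM was 6.44 to 8.03 with DMSO and 9.76 to 12 with adenosine in batch 1, and 6.55 to 7.28 with DMSO, 10.9 to 11.5 with adenosine and 8.34 to 10.6 with AMP in batch 2. It was higher in every treated library than in any DMSO library of its batch, by 1.43-fold, 1.62-fold and 1.35-fold.

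**Figure D3:**
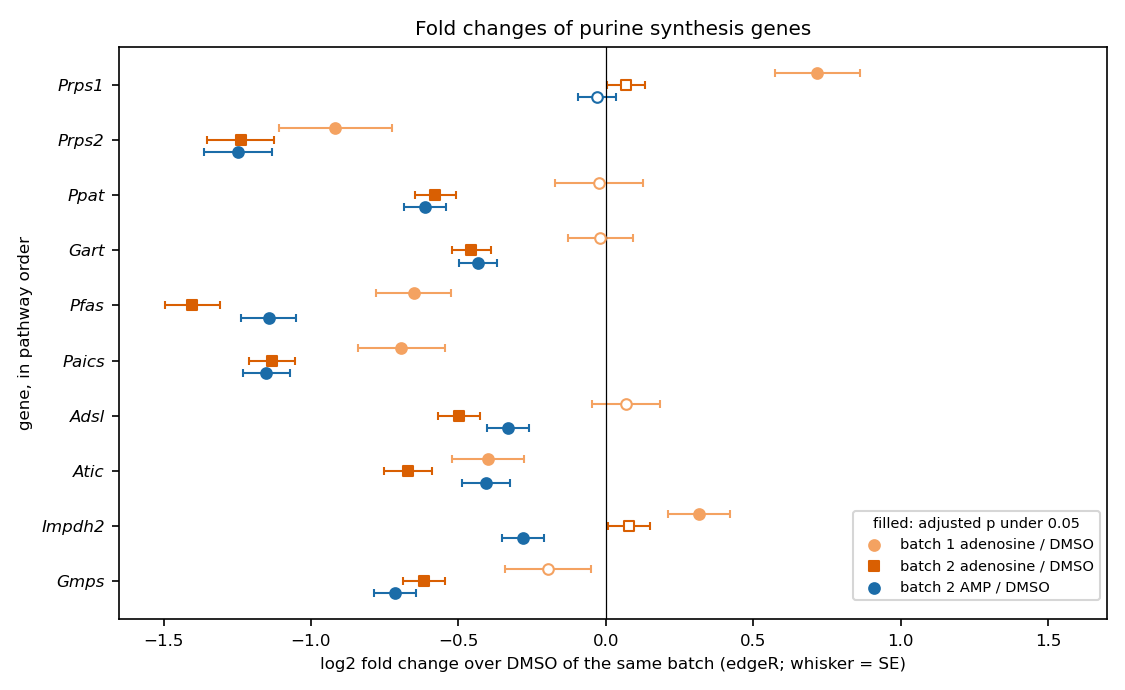
Fitted log2 fold change over DMSO of the same batch (horizontal axis) with its SE (whisker) for each gene in pathway order (vertical axis), for 0.05 mM adenosine in batch 1, 0.1 mM adenosine in batch 2 and 0.25 mM AMP in batch 2. Filled symbols have an adjusted p under 0.05: Prps2, Pfas and Paics lie furthest below 0 in all 3 treatments, down to -1.40 for Pfas with 0.1 mM adenosine.

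The authors' deposited table for batch 1 gave the same 6 genes an adjusted p under 0.05. It rests on the same libraries, so it is not independent of the calls above. The share of all genes under 0.05 in it was not computed. Turned to adenosine over DMSO, the log2 fold changes in the authors' deposited table were 0.71 for Prps1, -0.93 for Prps2, -0.66 for Pfas, -0.70 for Paics, -0.41 for Atic and 0.31 for Impdh2. In that table the other 4 genes, Ppat, Gart, Adsl and Gmps, lay between -0.21 and 0.06.

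AMP was also tested directly against adenosine within batch 2, as given, at unlike doses. Impdh2 was the only gene of the 10 called, where 6.51% of all genes were called, 4.52% higher and 2% lower. It was 1.28-fold lower with AMP than with adenosine (log2 difference -0.36, SE 0.07, adjusted p = 0.00541), the AMP libraries at 136 to 152 FPKM and the adenosine libraries at 178 to 198. Pfas, Adsl and Atic were higher in every AMP library than in any adenosine library, and 4 of the 10 genes did not overlap between these groups (23.6% of all genes), but their log2 differences of 0.26 (adjusted p = 0.124), 0.17 (adjusted p = 0.192) and 0.26 (adjusted p = 0.0714) were not called. With the replicate number as a block Atic was called too (0.26, adjusted p = 0.0381). For the other 6 genes the libraries overlapped, with 95% intervals of the log2 difference of -0.23 to 0.04 for Prps1, -0.26 to 0.24 for Prps2, -0.18 to 0.11 for Ppat, -0.12 to 0.16 for Gart, -0.19 to 0.15 for Paics and -0.25 to 0.05 for Gmps.

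The adenosine effect was more negative in batch 2 than in batch 1 for all 10 genes, with log2 differences of -0.75 to -0.23, with a median difference of -0.43 against 0.00 over all genes. Taken gene by gene, 5 of the 10 differences passed the test of treatment by batch on 12 libraries, where 10.1% of 13055 genes were called, 5.27% with a more positive and 4.87% with a more negative effect in batch 2. The 5 were Pfas (-0.75, SE 0.14, adjusted p = 0.00594), Adsl (-0.56, SE 0.12, adjusted p = 0.0108), Prps1 (-0.65, SE 0.16, adjusted p = 0.016), Gart (-0.43, SE 0.11, adjusted p = 0.0253) and Ppat (-0.55, SE 0.16, adjusted p = 0.0418). With the replicate number as a block Ppat was no longer called (-0.54, adjusted p = 0.0736). The differences of Prps2 (-0.32, adjusted p = 0.382), Paics (-0.43, adjusted p = 0.105), Atic (-0.26, adjusted p = 0.24), Impdh2 (-0.23, adjusted p = 0.19) and Gmps (-0.41, adjusted p = 0.105) were not called. Dose and batch cannot be told apart in this comparison. The count of 5 fell to 2 without DMSO replicate 2 of batch 1 or DMSO replicate 2 or 3 of batch 2 and to 3 without DMSO replicate 1 or adenosine replicate 2 or 3 of batch 2. It rose to 7 without adenosine replicate 1 or DMSO replicate 1 of batch 1.

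**Figure D4:**
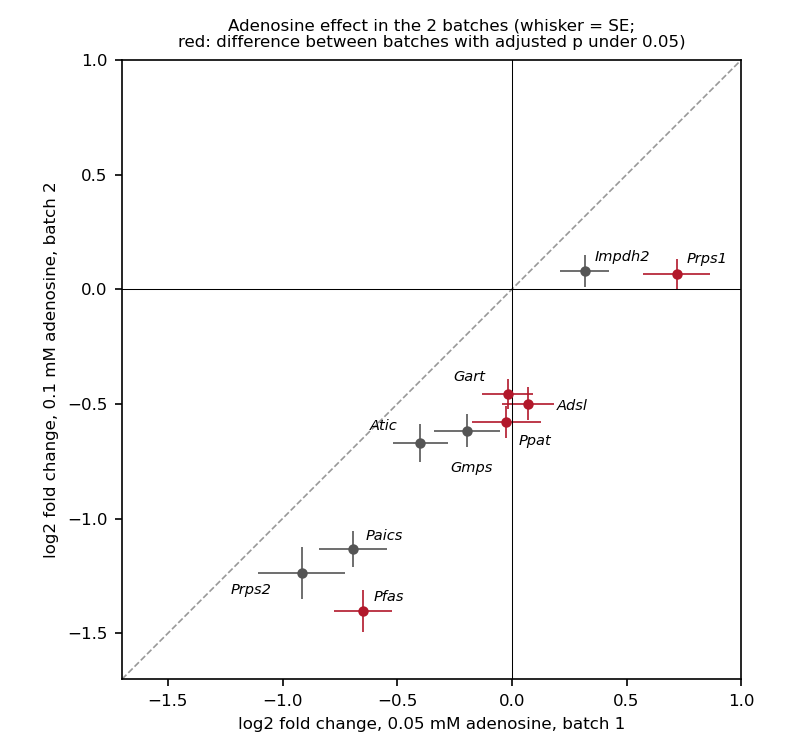
Log2 fold change with 0.1 mM adenosine in batch 2 (vertical axis) against that with 0.05 mM adenosine in batch 1 (horizontal axis) for the 10 genes, with SE whiskers and a dashed line of equal effect. All 10 points lie below the line, and the 5 in red (Prps1, Ppat, Gart, Pfas and Adsl) had a difference with adjusted p under 0.05.

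Added up, the 10 genes took 1908 to 2190 CPM with DMSO and 2036 to 2393 with adenosine in batch 1, where the groups overlapped. In batch 2 they took 2208 to 2279 CPM with DMSO, 1846 to 2039 with adenosine and 1750 to 1867 with AMP, 1.13-fold and 1.24-fold less without overlap. These sums are scaled by library totals, without the TMM factors of the fitted fold changes, so the 2 are not on the same scale.

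Genes that work beside these enzymes did not all follow them. Prpsap1, which codes for a protein bound to PRPP synthetase and described as restraining it, had 33.3 to 39.1 FPKM with DMSO and 57.8 to 60.3 with adenosine in batch 1, and 24.5 to 26.5 with DMSO, 39.7 to 42.5 with adenosine and 34.6 to 40.1 with AMP in batch 2. Prpsap1 rose in all 3 treatments, by 0.74 (adjusted p = 0.000269), 0.66 (adjusted p = 1.42e-06) and 0.54 (adjusted p = 1.46e-05) on the log2 scale. Its relative Prpsap2 was not called (0.17, 0.26 and 0.10, adjusted p = 0.389, 0.0518 and 0.466). Prps1l3 rose with adenosine in batch 1 (0.38, adjusted p = 0.0368) and batch 2 (0.26, adjusted p = 0.0137) and was at 0.02 with AMP (adjusted p = 0.858), and Prps1l1 had 0 counts in batch 1.

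Impdh1, the isoenzyme of Impdh2, fell in all 3 treatments, from 24.1 to 27.3 FPKM to 19.3 to 19.9 in batch 1, and from 23.3 to 25.4 FPKM to 10.3 to 11.4 with adenosine and 11.2 to 12.9 with AMP in batch 2. Its log2 fold changes were -0.42 (adjusted p = 0.0151), -1.17 (adjusted p = 1.72e-08) and -1.01 (adjusted p = 1.16e-07), and its adenosine effect differed by -0.75 between batch 2 and batch 1 (adjusted p = 0.0035). Adss, which codes for adenylosuccinate synthetase on the way from IMP to AMP, was not called in batch 1 (0.15, adjusted p = 0.397) or with AMP (-0.13, adjusted p = 0.106) and was slightly lower with adenosine in batch 2 (-0.19, adjusted p = 0.0258). Adssl1, the muscle type of the same enzyme, had 4 to 10 counts per library with DMSO and 44 to 68 with adenosine in batch 1.

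The pathways that feed the enzymes moved in different directions. Of 10 genes for ribose phosphate supply, 5 rose and 0 fell in batch 1, and 7 rose and 3 fell with each treatment of batch 2, with median log2 fold changes of 0.66, 0.65 and 0.31. Of all genes 19.6% were higher and 19.5% lower in batch 1, 34.9% and 34.5% with adenosine in batch 2 and 33.7% and 31.8% with AMP, the shares against which the counts of each list are to be read. Pgd, an enzyme of the oxidative pentose phosphate pathway, rose by 0.80 (adjusted p = 0.000163) in batch 1 and 0.74 (adjusted p = 8.06e-07) with adenosine in batch 2. With AMP it rose by 0.31 (adjusted p = 0.0036). Of 22 genes tested for one-carbon and amino acid supply, 10 fell and 1 rose in batch 1, 15 fell and 5 rose with adenosine in batch 2 and 16 fell and 3 rose with AMP, with medians of -0.29, -0.88 and -0.66. Phgdh, the entry enzyme of serine synthesis, fell in all 3 treatments, with log2 fold changes of -2.29 (adjusted p = 3.53e-07), -2.65 (adjusted p = 2.4e-11) and -2.07 (adjusted p = 3.83e-10), more than any of the 10 purine synthesis genes. Glul, glutamine synthetase, rose by 1.57 in batch 1 (adjusted p = 4.31e-06). In batch 2 it rose by 1.90 with adenosine (adjusted p = 2.25e-10) and 1.42 with AMP (adjusted p = 7.06e-09).

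Of 21 salvage and interconversion genes tested in batch 1, 7 fell and 2 rose, where 19.5% of all genes were lower and 19.6% higher. In batch 2, 9 of 20 fell and 5 rose with adenosine (34.5% and 34.9% of all genes), and 9 fell and 4 rose with AMP (31.8% and 33.7%). Adk, adenosine kinase, which makes AMP from adenosine, had log2 fold changes of -1.14 (adjusted p = 2.47e-05), -1.97 (adjusted p = 2.33e-10) and -1.92 (adjusted p = 4.81e-10), and Dck, deoxycytidine kinase, of -2.42, -2.24 and -2.56 (adjusted p = 3.18e-05, 9.08e-08 and 4.1e-08). Xdh, which oxidises purine bases to uric acid, rose by 0.95 (adjusted p = 0.00637) and 3.67 (adjusted p = 1.66e-09) with adenosine in batches 1 and 2. With AMP it rose by 3.36 (adjusted p = 7.65e-09), at a mean of 8.62 CPM. Of 16 transcription factors described as regulators of purine synthesis genes, 7 fell and 3 rose in batch 1, 9 fell and 5 rose with adenosine in batch 2 and 8 fell and 4 rose with AMP, beside the same shares of all genes. Mxd4, a partner of MAX that opposes MYC, rose by 1.35 (adjusted p = 6.8e-05), 2.83 (adjusted p = 2.87e-10) and 2.53 (adjusted p = 1.4e-09), and E2f3 had log2 fold changes of -2.14 (adjusted p = 8.48e-06), -2.13 (adjusted p = 4.23e-09) and -1.89 (adjusted p = 2.12e-08). Of relatives picked after their values were seen, Mxd3 moved opposite to Mxd4, at low means of 3.18, 7.92 and 7.06 CPM over the libraries compared. The log2 fold changes of Mxd3 were -3.29 (adjusted p = 0.00029), -2.66 (adjusted p = 4.78e-07) and -4.17 (adjusted p = 3.01e-08). Myc itself was at -0.09 (adjusted p = 0.652), -0.22 (adjusted p = 0.0355) and 0.10 (adjusted p = 0.336).

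**Figure D5:**
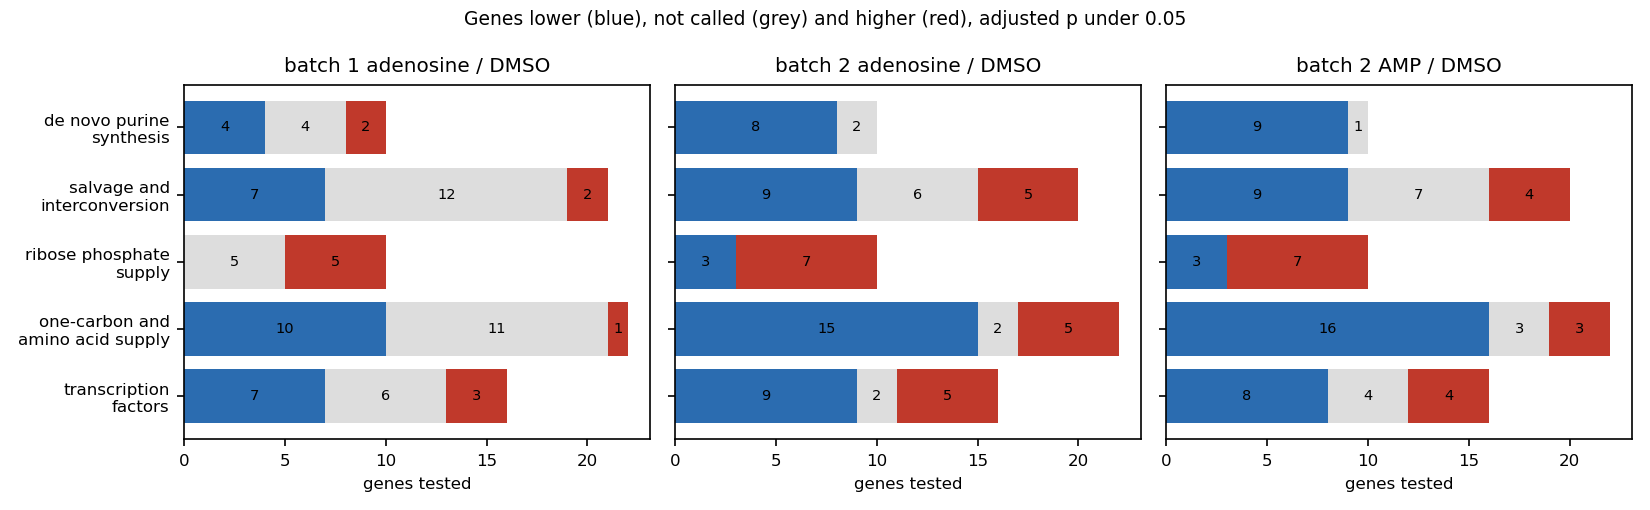
Number of genes tested (horizontal axis, from 0) that were lower (blue), not called (grey) or higher (red) at adjusted p under 0.05 in each of 5 groups of genes (vertical axis), for the 3 treatments against DMSO. The purine synthesis enzymes go from 4 lower and 2 higher in batch 1 to 8 and 9 lower and none higher in batch 2, while those of ribose phosphate supply go from 5 higher and none lower to 7 higher and 3 lower with each treatment of batch 2.

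Proliferation markers fell in 11 of 12 cases in batch 1 and in 12 of 12 with each treatment of batch 2, with median log2 fold changes of -2.87, -2.97 and -2.69, and their part in the lower purine synthesis mRNAs was not tested. Markers of other cell types also moved. Smooth muscle and pericyte markers summed to 296 to 696 CPM with DMSO and 35.4 to 82.1 with adenosine in batch 1 (6 markers). In batch 2 (3 markers) they summed to 278 to 478 with DMSO, 31.7 to 67.2 with adenosine and 91.5 to 236 with AMP. Acta2 (mean of 230 CPM over the batch 1 libraries) and Tagln (67 CPM) made up most of the batch 1 sum. Pdgfrb was at 1.9 CPM there and not called. Fibroblast markers summed to 344 to 448 CPM and 316 to 395 in batch 1 (8 markers), and to 329 to 402, 288 to 309 and 394 to 434 in batch 2 (4 markers). Cd34 (mean of 248 CPM over the batch 1 libraries) and Gsn (106 CPM) made up most of the batch 1 sum, with Dcn at 2.58 and Pdgfra at 0.67 CPM. Endothelial markers were low but their sum was higher after treatment, at 5.10 to 7.34 CPM with DMSO and 18.6 to 24.3 with adenosine in batch 1 (6 markers) and at 2 to 5.26, 9.15 to 10.3 and 9.24 to 12.7 in the DMSO, adenosine and AMP libraries of batch 2 (2 markers). Of the 3 tested in batch 1, only Tek was called higher (mean of 11.2 CPM over the batch 1 libraries). Pecam1 and Cdh5 were not called there (adjusted p = 0.483 and 0.451). With adenosine in batch 2 Tek was again called higher, and Pecam1 was not called (adjusted p = 0.101). Leukocyte markers summed to 1.99 to 3.02 and 13.7 to 20 CPM in batch 1 (8 markers) and to 1.65 to 3.31, 12.1 to 15.7 and 12.3 to 16.3 in batch 2 (2 markers), and adult myofibre markers were at most 38.6 CPM in any library. Cd68 (mean of 7.36 CPM over the batch 1 libraries) and Cd79a (1.08 CPM) were the only leukocyte markers tested in batch 1, and both were called higher. The leukocyte markers Adgre1, Cd3e and Csf1r were at 0 in the DMSO libraries of batch 1, and Cd3e also in its adenosine libraries. Their part in the results was not tested either.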

How the data were processed

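Bulk Smart-seq2 RNA-seq of 15 libraries was analysed from the tables the authors deposited. The deposited counts are raw counts per gene; Trim Galore, STAR, Subread's featureCounts and DESeq2 with mm10 are named in the submitters' processing notes, and per the file headers batch 1 was counted with featureCounts 1.6.4. For batch 2 the sources used here give no counter settings. The deposited FPKM values carry a factor per library (0.8948 to 1.1548 of the batch mean), close to the inverse of its TMM factor. The authors' log2 fold changes and adjusted p-values of batch 1 are, per the file headers and values, coded as DMSO over adenosine. In the deposited batch 2 counts 43 lines named no gene (0.0589% of counts) and were left out; that table holds no gene under 101 counts in all.

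Counts were tested with edgeR 4.0.16 (R 4.3.3, TMM, filterByExpr, two-sided quasi-likelihood tests, adjusted by Benjamini-Hochberg over all genes), on 6 libraries in batch 1, 9 in batch 2 and 12 for treatment by batch. Only the comparisons of adenosine with DMSO were also run on simulated counts, with few genes changed and rises and falls balanced. That run cannot check the scaling in these data or the other comparisons. Alternatives were DESeq2 1.42.0, limma 3.58.1 on log2(FPKM + 0.1 or 1), other scalings and filters, a replicate block and leaving out each library. No 2 libraries of a group agreed within counting noise (chi-square per degree of freedom at least 3.54 in 15 pairs). In batch 2 the DMSO and adenosine libraries of the same replicate number deviated together from their group means (r = 0.343, 0.282 and 0.155 across genes, unlike numbers -0.279 to 0.011), so the numbers may pair these samples; the labels do not say so. Ratios are of FPKM within a library, and the share of other gene pairs without overlap was not computed. Exact permutation of 3 against 3 cannot go below p = 0.1, so no p-value is given for the ratios. Genes named are all 10 members and the companion enzymes. Each other list of the pathway gave up to 3 genes of largest change per comparison. These had an adjusted p under 0.05 and a mean of at least 10 CPM, and the text gives a part of them. Genes named for a comparison may be given for the others too, and Mxd3 and Myc were picked after their values were seen. Marker lists are given as sums, with some single markers. The members and lists were chosen with earlier results of these data known. Motif windows are RefSeq promoters, and shared stretches were counted in the GENCODE transcripts.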

Additional observations from a re-analysis of the deposited data

Results flagged for a closer look

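The adenosine effect on 5 genes differed between the batches by the test of treatment by batch, each being more negative in batch 2, where the dose was 0.1 mM against 0.05 mM. Of all 13055 genes tested 10.1% were called, 5.27% with a more positive and 4.87% with a more negative effect in batch 2. The count of 5 ran from 2 to 7 when 1 library was left out. The log2 difference was -0.75 for Pfas, -0.65 for Prps1, -0.56 for Adsl, -0.55 for Ppat and -0.43 for Gart. Pfas fell in both batches, more in batch 2. Adsl, Ppat and Gart were lower in batch 2 and not called in batch 1, and Prps1 was higher in batch 1 and not called in batch 2. Of the 20 alternatives run, Pfas and Adsl kept an adjusted p under 0.05 in all, Prps1 lost it in 4, Gart in 7 and Ppat in 15. Dose and batch cannot be told apart.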

How the results depend on the processing

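Over the single genes in 5 comparisons, 721 alternative values had the direction and side of the threshold first reported, 46 lost a call, 7 gained one and 16 changed sign. Prps2, Pfas and Paics kept their calls in the 3 treatments, and Ppat and Gmps in both of batch 2, in every alternative run. In batch 1, 1 gene in place of 2 was called higher with limma on log2(FPKM + 0.1) or log2(FPKM + 1), with no filter on low counts and with the replicate block, Impdh2 being lost each time (adjusted p = 0.0699, 0.0558, 0.129 and 0.0733); leaving out 1 library gave 1 to 2 higher. Scaling by library totals gave a batch 1 median of 0.088 and turned Ppat to 0.175, Gart to 0.177 and Gmps to 0.002. In batch 2 it gave 2 higher and a median of -0.288 with adenosine, and 1 higher, 5 lower and a median of -0.256 with AMP, with Prps1 at 0.241. A minimum mean of 10 CPM gave medians of -0.525 with adenosine and -0.452 with AMP, and Prps1 at 0.043 with AMP. With limma on log2(FPKM + 1) the adenosine median was -0.565, and leaving out 1 library gave -0.624 to -0.560. For AMP against adenosine the replicate block called 2 genes, 1 of them higher (Atic, 0.263, adjusted p = 0.0381), and library totals put Gart at -0.018. The batch difference had 2 calls with library totals, and 2 to 7 when 1 library was left out.

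Values that changed sign when 1 library was left out were all near 0 and not called. They ranged from -0.143 to 0.086 for Ppat, -0.105 to 0.000 for Gart and -0.003 to 0.158 for Adsl in batch 1, and from -0.095 to 0.109 for Prps2, -0.008 to 0.049 for Gart and -0.081 to 0.057 for Paics for AMP against adenosine. Libraries of the same replicate number correlated in their deviations from the group means by -0.187 to 0.224 in batch 1, 0.030 to 0.289 for DMSO with AMP and -0.029 to 0.506 for adenosine with AMP, so the numbers were not taken as pairs there; 2 of 6 and 6 of 9 libraries correlated best with their own number. The replicate block left the calls of the 10 genes with adenosine in batch 2 as they were. It lost Ppat from the batch difference (-0.539, adjusted p = 0.0736) and Impdh2 in batch 1 (0.315, adjusted p = 0.0733). For AMP against adenosine it added Atic (0.263, adjusted p = 0.0381). Where a call changed, the cause was not tested.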

Other observations

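In batch 2 some genes around the purine route differed between AMP and adenosine, at unlike doses, where 4.52% of all genes were higher and 2% lower with AMP. Of 22 genes of one-carbon and amino acid supply 3 were higher and 1 lower with AMP. Phgdh of serine synthesis was higher by 0.58 on the log2 scale (adjusted p = 0.0032), Mthfd2, a mitochondrial folate enzyme, by 0.58 (adjusted p = 0.00134), and Glul was 1.39-fold lower (adjusted p = 0.00421). Of 10 genes of ribose phosphate supply 2 were lower, Pgd 1.35-fold (adjusted p = 0.0036) and Tkt, transketolase, 1.25-fold (adjusted p = 0.0264). Mtap, which recovers adenine from methylthioadenosine, was 1.29-fold higher (adjusted p = 0.00805).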
